A study of Mus musculus with 8 samples.

Results

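The extracellular matrix and integrin genes are the genes of the tables whose symbol begins as that of a collagen chain, a laminin chain, an ADAMTS protease, a fibulin, a lysyl oxidase, a matrix metalloproteinase (MMP), a tissue inhibitor of metalloproteinases (TIMP), a thrombospondin or an integrin subunit, together with Fn1 and Sparc. The rule found 62 of the 10690 genes listed in at least 1 table. GENCODE vM1 holds 147 symbols that match it, of which 85 are in no table. The tables list only genes with at least 50 reads in both libraries compared. The 62 genes were 16 collagens, 12 glycoproteins, 4 crosslinking enzymes, 19 proteases and inhibitors, 8 integrin subunits and 3 genes matched by their symbol alone. The last 3 are Col4a3bp, a ceramide transporter, and Itgb1bp1 and Itgb3bp, which encode intracellular proteins. Itgav does not match the rule.

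The data are 1 QuantSeq FWD library, whose reads start near the 3′ end of polyadenylated RNA, from each of 4 conditions of proliferating NIH3T3 cells, an established line of mouse embryonic fibroblasts, grown in medium with calf serum. NT cells were not treated. AS cells were kept in 250 μM sodium arsenite for 1 h, and RC4 and RC8 cells had the same treatment and then 4 h and 8 h of recovery in medium without arsenite. Total RNA was sequenced, and no cell fraction was taken. Because there was 1 library per condition, no difference between conditions could be tested, and each interval or counting error below covers the counting of reads only. The 3 comparisons share the NT library. In RNA from whole cultures, fewer cells that express a gene and less RNA per cell cannot be told apart.

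Depth was similar, with 22.4 M to 23.0 M reads on listed genes per library. All 8 fibroblast markers were listed in the 3 tables, and none of the 4 epithelial, 3 leukocyte and 3 endothelial markers was listed in any. As a check of the labels, Hmox1, the arsenite-inducible heme oxygenase, had 27.6, 57.8, 888 and 101 RPM in NT, AS, RC4 and RC8, where RPM is reads scaled to 1000000 reads on listed genes. Against NT, the median log2 change of all genes was −0.04 (AS), −0.30 (RC4) and 0.01 (RC8). Changes in RC4 are therefore also given relative to the median gene for the groups and for some single genes. All other changes of single genes in RC4 are on the RPM scale, on which the median gene was at −0.30.

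Fibroblasts make most of the matrix of connective tissue. Collagen chains fold into triple helices in the endoplasmic reticulum, are trimmed outside the cell and are joined into fibrils by lysyl oxidases, while laminins and type IV collagen build the basement membrane. Metalloproteinases and ADAMTS proteases cut these proteins, TIMPs block the metalloproteinases, and integrins, dimers of an α and a β subunit, bind the matrix on the outside of the cell and the actin cytoskeleton on the inside. Arsenite is an oxidative stress that halts most translation and gathers mRNA in stress granules, which dissolve during recovery.

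The 62 genes took 0.882% of the reads on genes in NT (95% Wilson interval 0.878% to 0.886%) and 0.806% in AS (0.802% to 0.809%). In recovery they took 0.707% (RC4, 0.703% to 0.710%) and 0.705% (RC8, 0.702% to 0.709%). Their median level in NT was 48.1 RPM, against 32.6 for all genes, and their levels spanned 2.21 to 877 RPM. In QuantSeq a transcript gives a read at its 3′ end whatever its length, so these levels were not divided by length. The NT level of a gene comes from the AS table. It differed from that of the other tables by 52.3% for Itga1, 13.3% for Itga5 and at most 4.04% for the others. The counting error of a log2 change, 1 SE, was 0.01 to 0.26 with a median of 0.06.

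After 1 h of arsenite all matrix and integrin genes but 1 were within 2-fold of NT. The median log2 change of the 62 genes was −0.09, against −0.04 for all genes, and 44 of the 62 (71.0%) were below 0 compared with 56.3% of all genes. Relative to the median gene 39 of the 62 were below 0. Only Itgb3 was at least 2-fold lower, 1 of 62 genes beside 3.22% of all genes, and none was at least 2-fold higher, beside 0.622% of all genes. After 4 h of recovery 8 of 59 genes were at least 2-fold lower and 4 were at least 2-fold higher, beside 13.4% and 3.69% of all genes. These are 13.6% and 6.78% of the 59, so that the share of lower genes was near that of all genes. Their median was −0.29, and it was 0.02 relative to the median gene. On that scale 6 genes were at least 2-fold lower and 5 were at least 2-fold higher, beside 6.38% of all genes in either direction. After 8 h the median of 61 genes was −0.30 while that of all genes was 0.01, and 42 of the 61 (68.9%) were below 0 compared with 49.4% of all genes. At that time 4 genes were at least 2-fold lower and 4 were at least 2-fold higher, or 6.56% each, beside 3.53% and 2.97% of all genes.

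**Figure D1:**
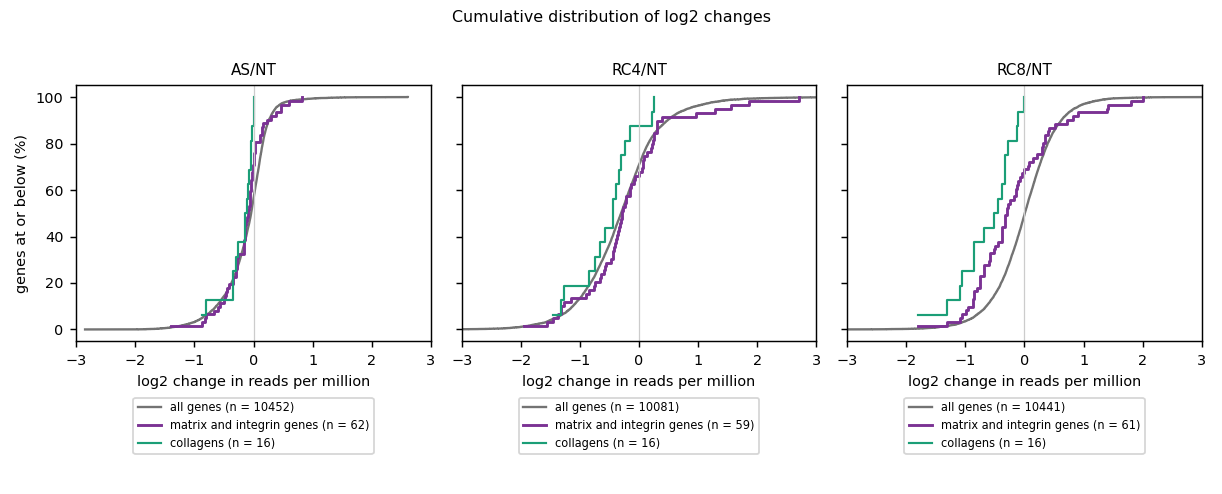
Cumulative distributions of the log2 change in RPM (x axis) as the percentage of genes at or below a value (y axis), for all genes, the matrix and integrin genes and the 16 collagens among them. In RC4 the curve of the matrix and integrin genes runs close to that of all genes, with medians of −0.29 and −0.30. In RC8 it lies to the left for most genes, with medians of −0.30 and 0.01, and no collagen is above 0.

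Most collagens were below NT in each treated library. Of 16 collagen genes, 14 (AS), 14 (RC4) and 16 (RC8) were below NT, with median log2 changes of −0.12, −0.44 and −0.48, beside 56.3%, 70.8% and 49.4% of all genes below NT. Relative to the median gene, 12 were below NT in RC4, and the median was −0.14 in RC4 and −0.48 in RC8. None was at least 2-fold higher in any of the 3 treated libraries, beside 0.622% (AS), 3.69% (RC4) and 2.97% (RC8) of all genes. Col3a1, Col4a5 and Col8a1 were at least 2-fold lower in RC4, or 18.75% of the 16, beside 13.4% of all genes. Col1a2, Col3a1, Col4a5 and Col12a1 were at least 2-fold lower in RC8, or 25.0%, beside 3.53% of all genes. Relative to the median gene, Col4a5 was at a log2 change of −0.97 in RC4, short of 2-fold. The range in RC8 ran from −1.79 to −0.01, so that the collagens did not change by a common amount.

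Col1a1 and Col1a2 encode the chains of type I collagen, the main fibril of skin, bone and tendon. Col1a1 had 666, 623, 446 and 367 RPM in NT, AS, RC4 and RC8. Col1a2 had 761, 740.0, 427 and 351 RPM in NT, AS, RC4 and RC8. Both genes were thus near NT in AS and lower with each time of recovery, and the log2 change in RC8 was −0.86 for Col1a1 and −1.10 for Col1a2, each with a counting error of 0.02. Col3a1, the chain of type III collagen, which lies in the same fibrils, had 85.7, 77.2, 31.5 and 24.7 RPM in NT, AS, RC4 and RC8. It was 2.73-fold lower in RC4 and 3.47-fold lower in RC8, the lowest log2 change of the 61 genes in RC8 at −1.79 ± 0.07 (counting error).

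Other fibrillar chains were closer to NT in RC8. Col5a2, a type V collagen chain that is built into type I fibrils, had 167, 165, 123 and 132 RPM in NT, AS, RC4 and RC8, with log2 changes of −0.02, −0.44 and −0.34. Col5a1, its partner chain, had log2 changes of −0.34, −0.16 and −0.12. Col27a1, a further fibrillar chain, had 38.8, 21.3, 24.6 and 31.8 RPM in NT, AS, RC4 and RC8. Unlike the type I chains it was lowest directly after arsenite, at a log2 change of −0.87.

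Among chains that decorate fibrils, Col12a1 had 22.0, 12.7, 13.2 and 8.91 RPM in NT, AS, RC4 and RC8, which is 2.47-fold lower in RC8. Col16a1 had 196, 162, 149.9 and 150.3 RPM, and its log2 change was between −0.39 and −0.27. Type VI collagen, which forms beaded filaments around cells, is made of 3 chains here. Col6a3 had 386, 304, 284 and 239 RPM, with a log2 change of −0.69 in RC8, and those of Col6a1 and Col6a2 in RC8 were −0.51 and −0.44. All 3 chains were lowest in RC8. Col8a1, a short-chain collagen of vessel walls and the cornea, had 99.1, 92.2, 39.9 and 55.0 RPM and was lowest in RC4, at 2.49-fold below NT.

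The type IV chains of the basement membrane differed from one another. Col4a1 had 84.4, 85.3, 101 and 78.7 RPM in NT, AS, RC4 and RC8, and Col4a2 had 51.6, 49.8, 59.9 and 51.1. These chains, which assemble with each other, were the only collagens above NT in RC4 on the RPM scale, with log2 changes of 0.26 and 0.21, and relative to the median gene Col5a1 and Col6a2 were above it too. Col4a5 had 31.3, 28.3, 13.0 and 15.1 RPM and was 2.42-fold lower in RC4 and 2.08-fold lower in RC8. Col4a6 had log2 changes of −0.30, −0.34 and −0.33, with a counting error of up to 0.12.

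**Figure D2:**
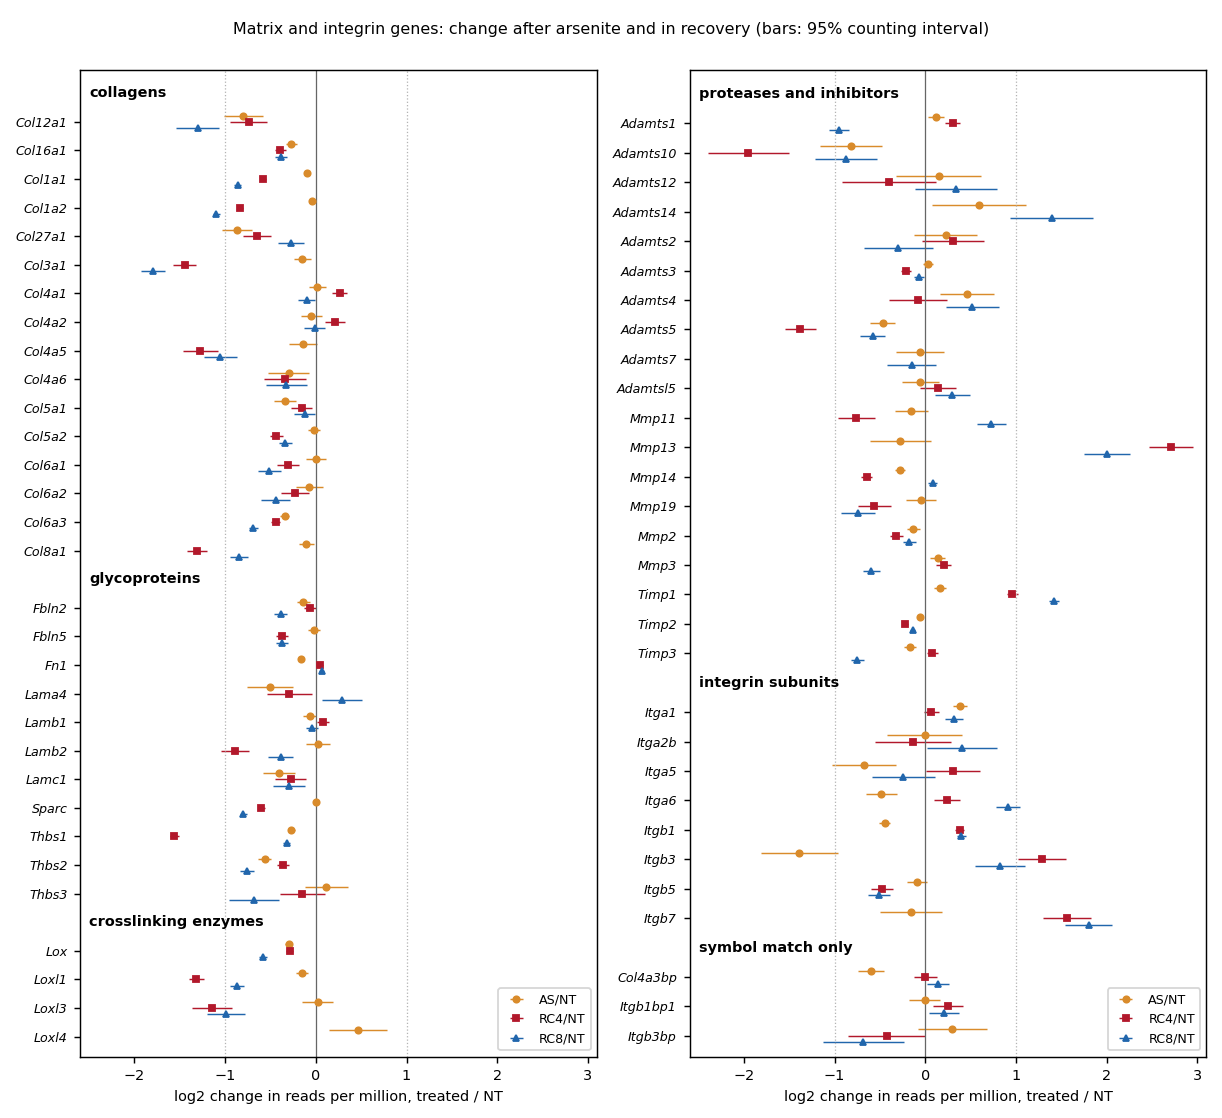
Log2 change in RPM against NT (x axis) of 61 of the genes (rows, by role) in AS (circles), RC4 (squares) and RC8 (triangles). Bars are 95% counting intervals and dotted lines mark 2-fold. The collagens lie at or left of 0 in RC8, whereas Mmp13, Itgb7 and Timp1 lie to the right of 1.

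The glycoproteins took no common course. Of 12 genes, 8 (AS), 9 (RC4) and 9 (RC8) were below NT, and their median log2 changes were −0.10, −0.29 and −0.35. In RC4 this is 75.0% of them, near the 70.8% of all genes. Relative to the median gene, 5 were below NT in RC4, and the median was 0.02. Fn1, fibronectin, which links collagen to integrins, had 683, 608, 705 and 714 RPM in NT, AS, RC4 and RC8. Its log2 change of 0.04 in RC4 and 0.06 in RC8 contrasts with those of Sparc, a collagen-binding protein of the matrix. Sparc had 661.9, 662.1, 438 and 381 RPM, with log2 changes of 0.00, −0.60 and −0.80, close to those of Col1a1. Relative to the median gene, Fn1 was at 0.35 and Sparc at −0.30 in RC4.

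The 3 thrombospondins, glycoproteins that bind cells, matrix and growth factors, differed in time. Thbs1 had 528, 436, 179 and 422 RPM in NT, AS, RC4 and RC8. It was 2.95-fold lower in RC4, the second lowest value of the 59 genes after Adamts10, and was 1.24 higher on the log2 scale in RC8 than in RC4. Thbs2 had 168, 114, 131 and 99.2 RPM, with log2 changes of −0.56, −0.36 and −0.76. Thbs3 had 12.2, 13.2, 11.1 and 7.61.

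The fibulins stabilise elastic fibres and the basement membrane. Fbln2 had 153, 139, 147 and 119 RPM in NT, AS, RC4 and RC8, and Fbln5 had 182, 179, 140.4 and 140.6. Neither came to a log2 change of −0.5. Among laminin chains, Lamb1 had 156, 149, 166 and 151 RPM and stayed within 0.08 of NT on the log2 scale. Relative to the median gene, Lamb1 was at 0.39 in RC4. Lamb2 had 42.6, 43.3, 23.0 and 32.6, with a log2 change of −0.89 in RC4. Lamc1, the γ chain of most laminins, had 26.2, 19.7, 21.7 and 21.4. The chains therefore did not change together.

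Lysyl oxidases oxidise lysines of collagen and elastin so that the fibres can be crosslinked. Lox had 513, 417, 421 and 342 RPM in NT, AS, RC4 and RC8. Loxl1 had 168, 151, 67.5 and 92.6 and was 2.49-fold lower in RC4. Loxl3 had 23.4, 23.8, 10.6 and 11.8, which is 2.21-fold lower in RC4 and, just short of 2-fold, 1.99-fold lower in RC8. Relative to the median gene its log2 change in RC4 was −0.84, short of 2-fold. Polyadenylation sites (PASs) with 78.1% of the Loxl3 reads in NT lie near or over exons of Htra2 on the other strand, and whether counting used the strand is not given in the sources used here. Loxl4 was listed in the AS table alone, with 5.85 RPM in NT and 8.07 in AS. All 3 enzymes listed in RC4 and RC8 were thus below NT at both times in RPM, beside 70.8% (RC4) and 49.4% (RC8) of all genes. Relative to the median gene, their median log2 change in RC4 was −0.84, and Lox was at 0.02.

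**Figure D3:**
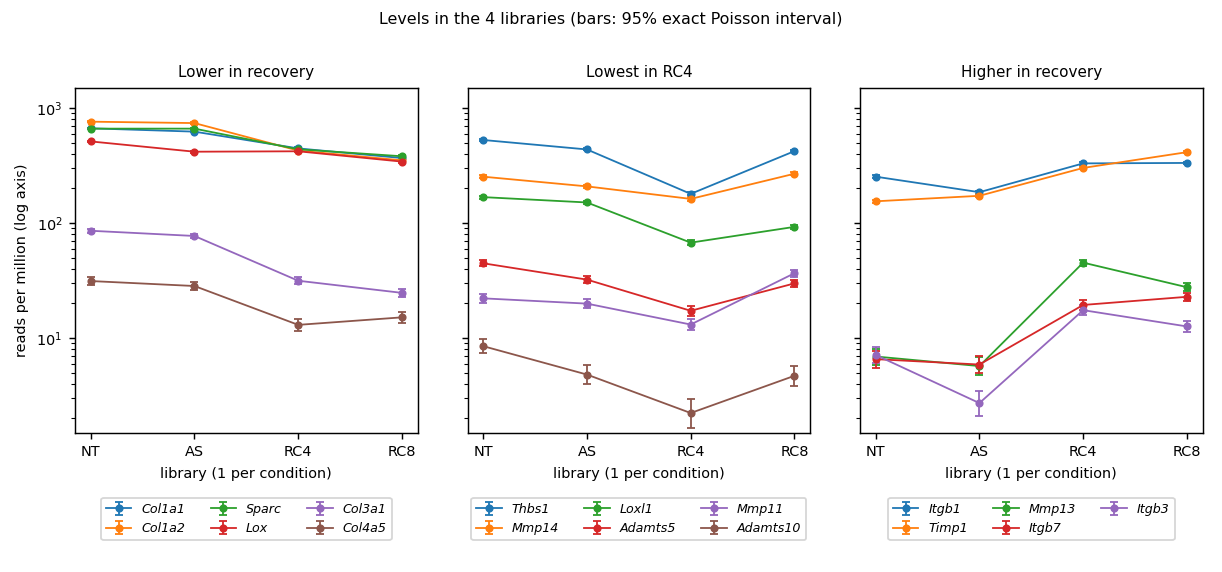
RPM (log axis) in NT, AS, RC4 and RC8 for 17 genes chosen after their values were seen, as 3 patterns: lower in recovery, lowest in RC4 and higher in recovery. Points are single libraries, bars are 95% exact Poisson intervals, and lines join the points of a gene. Thbs1 drops to 179 in RC4 and is at 422 in RC8, and Mmp13 has 45.3 in RC4 against 6.91 in NT.

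The proteases and inhibitors held both the highest and the lowest changes in RC4. Of 17 genes in RC4, 2 were at least 2-fold lower and 1 was at least 2-fold higher. These are 11.8% and 5.88%, beside 13.4% and 3.69% of all genes. The median of the 17 was −0.22, or 0.09 relative to the median gene. Of 19 genes in RC8, none was at least 2-fold lower, beside 3.53% of all genes. In RC8 3 were at least 2-fold higher, or 15.8%, beside 2.97% of all genes. The median of the 19 was −0.14. Mmp13, collagenase 3, which cuts fibrillar collagen, had 6.91 RPM in NT (95% exact Poisson interval 5.87 to 8.08) and 5.70 in AS (4.76 to 6.78). It had 45.3 RPM in RC4 (42.5 to 48.1) and 27.7 in RC8 (25.5 to 29.9). Mmp13 was thus 6.54-fold higher in RC4 and 4.00-fold higher in RC8, the highest change of the listed matrix and integrin genes in both.

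Mmp3, stromelysin 1, lies within 162489 bp of Mmp13 on chromosome 9 in mm9, and it had 100.2, 110.0, 116 and 66.3 RPM in NT, AS, RC4 and RC8. Its log2 change was 0.20 in RC4 and −0.60 in RC8. Both genes were thus above NT in RC4, and in RC8 Mmp3 was below NT while Mmp13 was above it. The start regions of both genes hold the letters of an AP-1 motif, TGANTCA, which is its own reverse complement and so was searched on both strands at once. It was looked for in the 250 bases before and 50 bases after each gene start of RefSeq (GRCm38.p6). Of 44 such promoters, which 42 of the 62 symbols matched, 3 hold it (6.82%), those of Mmp3, Mmp13 and Col6a1. The share was 4.67% over the 9938 promoters of listed genes and 7.81% over all 32851. The windows around the motif, with its letters in capitals, are shown because both genes hold the motif while their changes differ:
Mmp13 chr9:7272468-7272497 (+): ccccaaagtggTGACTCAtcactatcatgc
Mmp3 chr9:7445765-7445794 (+): ggaagcaattaTGAGTCAgttttcgggtga

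Mmp14, a collagenase fixed in the cell membrane, had 253, 208, 162 and 268 RPM in NT, AS, RC4 and RC8, with log2 changes of −0.28, −0.64 and 0.08. Mmp2, a gelatinase whose proform Mmp14 activates, had 147, 134, 118 and 130.1. Mmp11, stromelysin 3, had 22.1, 19.9, 13.1 and 36.6 RPM, so that it was lowest in RC4 at a log2 change of −0.76 and highest in RC8 at 0.73. In RPM all 3 genes had their lowest level in RC4. Relative to the median gene this held for Mmp14 and Mmp11 only. Mmp2 was then at log2 changes of −0.09 (AS), −0.02 (RC4) and −0.18 (RC8).

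The 9 listed Adamts genes that name a protease ranged widely. Adamts1 had 87.0, 94.3, 107 and 45.1 RPM in NT, AS, RC4 and RC8, with a log2 change of −0.95 in RC8. Adamts5, an aggrecanase, had 44.7, 32.2, 17.3 and 29.9 and was 2.60-fold lower in RC4. Adamts1 was thus lowest in RC8 and Adamts5 in RC4. Adamts10 had 8.50, 4.81, 2.23 and 4.70 RPM, a log2 change of −1.95 ± 0.23 (counting error) in RC4 that rests on 194 reads in NT and 51 in RC4. Adamts3, which trims procollagen, had 239, 244, 206 and 228 and was within 0.22 of NT on the log2 scale. All of these reads were assigned to 1 intronic PAS, before which the mm9 genome has a run of A and neither AATAAA nor ATTAAA. Whether they measure the mRNA of the protease was not tested. No common course was seen among these genes. Adamts4, another aggrecanase, had 7.04, 9.67, 6.77 and 9.96 RPM. Adamts14 had 2.21 RPM in NT and 3.34 in AS, was not listed in the RC4 table, and had 6.04 in RC8, 2.62-fold above the 2.30 of NT in that table. It is the gene with the fewest reads in NT. Adamtsl5, a relative of the ADAMTS proteins without a protease domain, had 17.1, 16.5, 19.3 and 21.4 RPM in NT, AS, RC4 and RC8.

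The 3 TIMPs diverged in recovery. Timp1 had 155, 172, 301 and 413 RPM in NT, AS, RC4 and RC8, which is 1.95-fold higher in RC4 and 2.67-fold higher in RC8. Relative to the median gene its log2 change in RC4 was 1.26, past 2-fold. Timp2 had 877, 845, 754 and 796 RPM, the most of the 62 genes in each of the 4 libraries, and stayed within 0.22 of NT on the log2 scale. Timp3, which is bound to the matrix, had 184, 164, 194 and 109.5, with a log2 change of −0.75 in RC8. Thus in RC8 1 inhibitor was above NT, 1 was near it and 1 was below it. PASs with 92.2% of the Timp3 reads in NT lie near or over exons of Syn3 on the other strand. For Mmp19, PASs near or over exons of 1110012D08Rik on the other strand held 82.9% of the reads in NT in the AS comparison. In the RC4 and RC8 comparisons they held 100% in each library.

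Most integrin subunits lay above NT in recovery. Of 8 genes, 7 were below NT in AS, with a median of −0.30, whereas 6 were above NT in RC4 and 6 in RC8. The medians in RC4 and RC8 were 0.27 and 0.40. Relative to the median gene, 7 were above NT in RC4, with a median of 0.58. These counts include Itga1, whose reads partly lie over another gene. Over all genes, 56.3% (AS), 70.8% (RC4) and 49.4% (RC8) were below NT. Itgb3, the β3 subunit, which pairs with αv and with the platelet subunit αIIb, had 7.13 RPM in NT (95% exact Poisson interval 6.07 to 8.32) and 2.72 in AS (2.08 to 3.49). It had 17.5 RPM in RC4 (15.8 to 19.3) and 12.6 in RC8 (11.2 to 14.1). Itgb3 was 2.62-fold lower in AS and 2.45-fold higher in RC4. Itgb7, the β7 subunit best known from lymphocytes, had 6.55, 5.88, 19.4 and 22.8 RPM and was 2.95-fold higher in RC4 and 3.48-fold higher in RC8. None of the 3 leukocyte markers was listed in any table.

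Itgb1, the β1 subunit shared by most collagen, laminin and fibronectin receptors, had 253, 185, 330.2 and 333 RPM in NT, AS, RC4 and RC8. Its log2 changes were −0.45, 0.38 and 0.40, each with a counting error of 0.03. Itga6, a laminin receptor subunit, had 29.7, 21.2, 35.2 and 56.0 RPM, with log2 changes of −0.49, 0.24 and 0.91. Itga5, the fibronectin receptor subunit, had 7.26, 4.55, 9.00 and 5.44. An intronic PAS held 30.4% of the Itga5 reads in NT and 13.7% in AS, and its window in the mm9 genome is all A. In RPM that PAS had 2.21 in NT and 0.62 in AS, and the PAS of the 3′-most exon had 5.05 and 3.92. Whether reads at the intronic PAS measure the Itga5 mRNA was not tested. Itgb1, Itgb3, Itgb7, Itga5 and Itga6 all had their lowest level in AS. Itgb5 was lower in recovery instead, at log2 changes of −0.48 and −0.51. The reads of Itga1, a collagen receptor subunit, were all assigned to introns, and 65.3% of them in NT to a PAS at chr13:115878563, where exons of Pelo lie on the same strand. Its reads there cannot be told apart from those of Pelo. The RC8 table lists that PAS alone, so the 96.8, 126, 102 and 79.3 RPM of Itga1 in the 4 libraries are not of 1 kind. Of the genes matched by symbol, Col4a3bp had 44.0, 29.0, 44.1 and 48.6 RPM, with a log2 change of −0.60 in AS, and Itgb1bp1 had 24.4, 24.3, 29.2 and 28.3.

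Between RC4 and RC8 the 59 genes had a median log2 difference of 0.00, against 0.26 for all 9972 genes listed in both tables. Adamts10, Mmp11 and Thbs1 were at least 2-fold higher in RC8 than in RC4, beside 13.2% of all genes. Adamts1 was one of 2 genes at least 2-fold lower, beside 2.13%. Over the 4 libraries, 26 of the 59 genes were highest in NT and 2 were lowest in NT, Timp1 among them. The same count was not made over all genes, of which 56.3% were below NT in AS and 70.8% in RC4. It is therefore not read as a trait of the matrix and integrin genes.

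Pairs of these genes that lie near each other on a chromosome did not always move alike. Col4a1 and Col4a2 overlap at their starts by 21 bp and run in opposite directions, and their log2 changes differed by little at each time. Col6a1 and Col6a2, 85162 bp apart, had −0.31 and −0.23 in RC4 and −0.51 and −0.44 in RC8. Col4a5 and Col4a6, whose starts are 1309 bp apart, had −1.27 and −0.34 in RC4 and −1.05 and −0.33 in RC8. Adamts1 and Adamts5, 55057 bp apart, had 0.30 and −1.38 in RC4. Col3a1 and Col5a2, 24615 bp apart, had −1.45 and −0.44 in RC4. No test of these differences was possible.

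**Figure D4:**
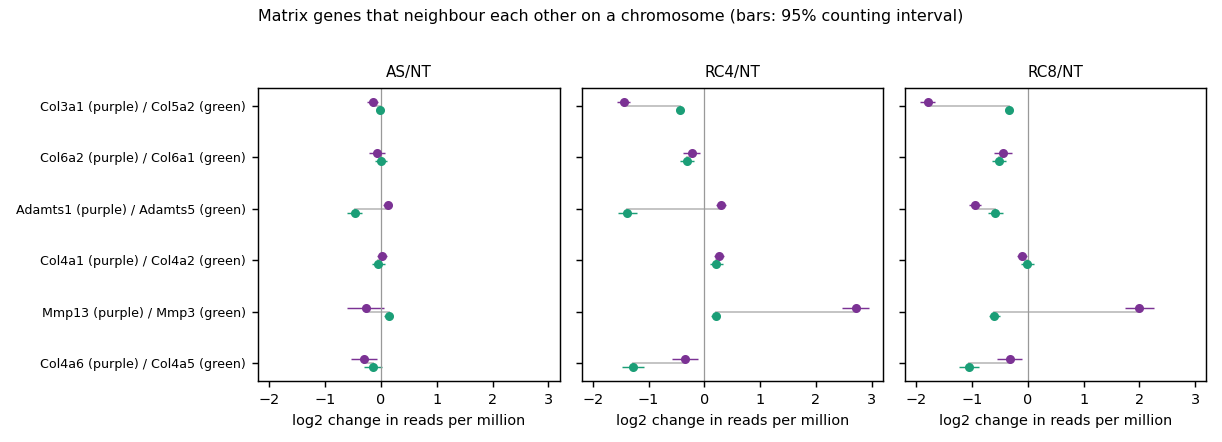
Log2 change in RPM (x axis) of 6 pairs of matrix genes that neighbour each other within 162489 bp on a chromosome (rows), in AS, RC4 and RC8 against NT. Purple and green points are the first and second gene of a pair, bars are 95% counting intervals, and grey lines join the pair. The points of Col4a1 and Col4a2 lie side by side, and those of Mmp13 and Mmp3 are 2.71 and 0.20 in RC4.

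Most genes in mammals have more than 1 polyadenylation site (PAS). A PAS nearer the stop codon (proximal) gives a shorter 3′ UTR than a distal one, and the longer form can carry more sites for microRNAs and RNA-binding proteins. Use of a PAS is given as the share of the gene's reads that MAAPER assigned to it. REDu is the log2 ratio of the distal over the proximal PAS in the treated library minus that in NT, taken for those 2 PASs in the 3′-most exon whose shares changed most, so that a negative value means more use of the proximal PAS.

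Of the genes of the AS, RC4 and RC8 tables, 40, 39 and 37 had at least 2 PASs, up to 8 in Adamts5. A PAS of the 3′-most exon changed its share by at least 10 percentage points in 3 of 39 (AS), 10 of 38 (RC4) and 13 of 37 genes (RC8), or 7.69%, 26.3% and 35.1%, beside 14.5%, 27.9% and 25.9% of all genes. The median REDu was −0.21 (35 genes, AS), −0.47 (34 genes, RC4) and −0.15 (33 genes, RC8), against −0.22, −0.37 and −0.14 for all genes. REDu was below 0 in 27 of the 34 genes in RC4, compared with 68.4% of all genes. It was at or below −1 in 10 genes and at or above 1 in 2 genes at that time, or 29.4% and 5.88% of the 34, beside 21.0% and 6.16% of all genes.

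The windows of 30 bases that end at the PASs of Thbs2 and of 4 collagen genes with shifts are shown from the mm9 genome, 5′ to 3′. They let a reader see which of the competing sites carry a canonical poly(A) signal. Capitals mark AATAAA or ATTAAA where it starts 10 to 30 bases before the PAS:
Thbs2 proximal chr17:14804119-14804148 (−): gtcattctcataaattaagcatgaaaaata
Thbs2 middle chr17:14803463-14803492 (−): gttaatatttATTAAAtgatttggaatata
Thbs2 distal chr17:14802580-14802609 (−): tgttcattgggttaaatttcaccactaaaa
Col4a5 proximal chrX:138122710-138122739 (+): atatatacatacataaactattatatgtga
Col4a5 middle chrX:138123210-138123239 (+): atctggcataaaccctactttactgaaaaa
Col4a5 distal chrX:138123698-138123727 (+): tatcaacttaATTAAAgatatatgttataa
Col12a1 proximal chr9:79448581-79448610 (−): aatAATAAActaattgtcgcttgtacacga
Col12a1 distal chr9:79446798-79446827 (−): catttttcAATAAAactactgaaaatttga
Col1a2 proximal chr6:4490711-4490740 (+): ctttgccgtttcctcctttaaaaaaaaaaa
Col1a2 middle chr6:4490955-4490984 (+): gaaaacccaAATAAAaattgaaaaataaaa
Col1a2 distal chr6:4491477-4491506 (+): agatgtttaAATAAAttgtgaaaaataaaa
Col3a1 proximal chr1:45405676-45405705 (+): ccaactaaattccagttatttatttccaaa
Col3a1 distal chr1:45405836-45405865 (+): aataAATAAAcgtcaacacttttatgataa

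Over all 156 PASs listed for the 62 genes, 25.6% had AATAAA in this window and 7.69% had ATTAAA without it. The shares over all 21906 PASs of the tables were 35.2% and 10.9%. No such hexamer was found for 66.7% and 53.9%, which says only that these letters are not in the window.

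Thbs2 had the largest shift of a 3′-most exon PAS in RC8 and a large one at each time. Its proximal PAS held 50.4% of the reads in NT (95% Wilson interval 48.8% to 52.0%) and 60.3% in AS (58.4% to 62.2%). In recovery it held 76.5% (RC4, 75.0% to 78.0%) and 77.3% (RC8, 75.5% to 79.0%). The distal PAS, 1539 nt further on in the annotated 3′ UTR, held 33.6%, 22.4%, 12.8% and 11.1%. Multiplied by the level of the gene, the distal form had 56.5 RPM in NT and 16.8 in RC4, while the proximal form had 84.8 and 100.1. The REDu was −0.84, −1.99 and −2.21. Neither the proximal nor the distal window holds AATAAA or ATTAAA, and the middle one has ATTAAA.

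Col4a5 used its distal PAS for 78.8% of reads in NT and 76.6% in AS, but for 48.3% in RC4 (95% Wilson interval 42.7% to 54.0%) and 60.1% in RC8 (54.8% to 65.1%). The proximal PAS, 988 nt upstream, held 9.30% in NT and 26.6% in RC4. In RPM the distal form was at 24.8 in NT and 6.29 in RC4, whereas the proximal form was at 2.93 and 3.46. The lower level of the gene in RC4 thus lay at the distal PAS, the one of the 3 with ATTAAA before it.

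Lamc1 and Col12a1 also used distal PASs less in recovery. The distal PAS of Lamc1, 72 bp past the annotated gene end, held 79.8% in NT and 57.1% in RC4, and 84.8% in NT and 70.9% in the RC8 table, which lists fewer PASs of the gene. That of Col12a1 held 64.6%, 65.2%, 53.0% and 49.5% in NT, AS, RC4 and RC8, and its proximal PAS, 1783 nt away, held 23.2%, 20.2%, 43.4% and 44.6%. In Col12a1 a PAS that the tables call intronic held the other reads, 12.2% in NT and 3.64% in RC4. Col12a1 had 205 reads in RC8, and the 95% Wilson interval of its proximal share there was 37.8% to 51.2%.

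The type I collagen gene Col1a2 differed between the 2 times of recovery. Its distal PAS held 29.8% of 17191 reads in NT, 28.6% in AS and 13.7% in RC4 (95% Wilson interval 13.0% to 14.4%), and 30.3% in NT and 28.1% in RC8 in the table of RC8. The REDu was −0.08, −1.44 and −0.15. The distal form had 227 RPM in NT, 58.4 in RC4 and 98.6 in RC8, while the middle form had 359 in the NT of the RC4 table, 250.4 in RC4 and 173 in RC8. The shift was thus seen in RC4 and not in RC8, when the level of the gene was lower still. The proximal window ends in a run of A that is part of the genome.

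The proximal PASs of Col8a1 and Itga6 were used most in RC4 and were near NT in RC8. The proximal PAS of Col8a1 held 47.8%, 55.3%, 60.7% and 49.3% in NT, AS, RC4 and RC8, and the distal one lies 2526 nt away. The window of this proximal PAS ends in a run of A in the mm9 genome and holds neither AATAAA nor ATTAAA. The proximal PAS of Itga6 held 13.1%, 21.6%, 24.5% and 14.9%. In RC8 the middle PAS of Itga6 went from 42.8% to 35.1% and its distal PAS from 44.0% to 50.1%. Itgb1bp1, one of the genes matched by symbol, used its 3′-most PAS for 70.2% in NT and 81.8% in RC4, and a PAS that the tables call intronic for the rest.

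**Figure D5:**
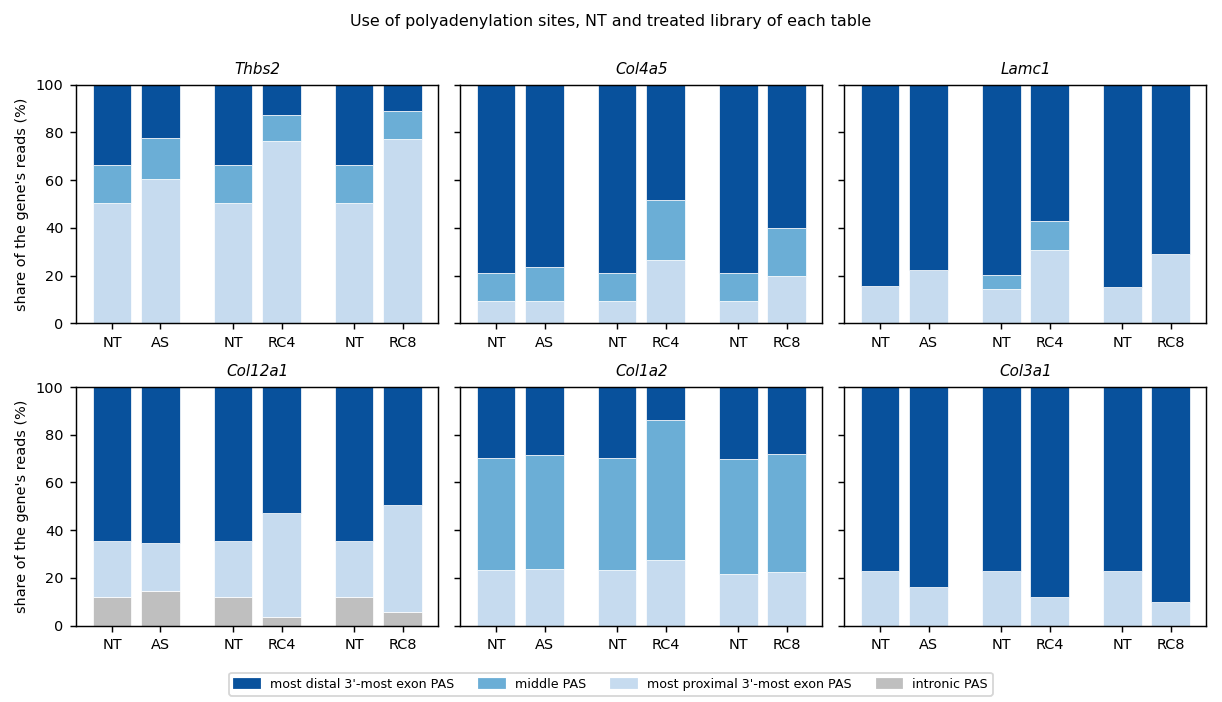
Share of the gene's reads at each PAS (stacked bars, %, adding to 100) for 6 genes, as pairs of NT and the treated library from the tables of AS, RC4 and RC8. Dark blue is the most distal PAS of the 3′-most exon, light blue the most proximal, mid blue a PAS between them and grey an intronic PAS. Dark blue shrinks in RC4 in 5 of the 6 genes and grows in Col3a1, from 77.2% to 88.1%.

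Other genes shifted to a distal PAS. Col3a1 used its distal PAS for 77.2%, 83.6%, 88.1% and 90.2% of reads in NT, AS, RC4 and RC8, with a REDu of 0.59, 1.13 and 1.44. Its 2 PASs are 160 nt apart, and only the distal window holds AATAAA. Mmp11 used its distal PAS, 143 nt from the other, for 29.3% in NT and 49.6% in RC8, when its level was highest. In RPM the distal form of Mmp11 was at 6.49 in NT and 18.2 in RC8 and the proximal form at 15.7 and 18.4. Adamtsl5 used a PAS at chr10:79803681 for 19.2% in NT, 30.9% in AS and 37.1% in RC8, and the RC4 table lists other PASs. The PAS 122 nt upstream went from 19.8% to 7.24% in AS and 6.14% in RC8.

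Loxl1 and Timp1 had changes between PASs that lie close together. Loxl1 used a PAS at chr9:58136459 for 25.0%, 33.5%, 29.8% and 41.6% of reads in NT, AS, RC4 and RC8. Timp1 used the proximal of 2 PASs, 101 nt apart, for 59.9% in NT and 72.9% in RC8, and the RC4 table lists a different pair. Timp2 and Fn1 changed by less than 10 points. The distal PAS of Timp2 in the AS table, chr11:118162375, held 81.0% in NT and 78.5% in AS. The RC4 and RC8 tables list chr11:118162400 instead, with 81.0% in NT, 74.7% in RC4 and 76.7% in RC8. The REDu of Timp2 was −0.26, −0.69 and −0.65, and the paper names the gene among its examples of 3′ UTR shortening. Fn1 used its distal PAS, 52 bp past the annotated gene end, for 86.7%, 84.9%, 91.6% and 85.6%.

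Other genes of the matrix, taken from lists made by function, are given as counts and medians. Of 40 other matrix proteins in AS, none was at least 2-fold lower or higher. In RC4 5 of 37 were at least 2-fold lower and 1 was at least 2-fold higher, or 13.5% and 2.70% beside 13.4% and 3.69% of all genes. Their median was −0.32, and −0.01 relative to the median gene. In RC8 5 of 37 were lower and 4 higher, or 13.5% and 10.8% beside 3.53% and 2.97% of all genes, with a median of −0.39. The lower ones included Fbn1, fibrillin, with a log2 change of −1.50 in RC4, and Igfbp7 with −1.98 in RC8. Ctgf, a connective tissue growth factor, had log2 changes of 2.19 in RC4 and 1.68 in RC8. For the enzymes and chaperones of collagen synthesis, 2 of 22 were at least 2-fold lower in RC4 and 2 were at least 2-fold higher (9.09% each, beside 13.4% and 3.69% of all genes), with a median of −0.30, near that of all genes. In RC8 2 were lower and 1 was higher (9.09% and 4.55%, beside 3.53% and 2.97%), with a median of −0.34. P3h4, which acts with collagen lysyl hydroxylases, had a log2 change of −1.19 in RC8, and Plod2, a lysyl hydroxylase, had one of 1.23 in RC4.

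Of 25 integrin partners and focal adhesion genes, 3 were at least 2-fold lower in RC4 (12.0%) and 1 in RC8 (4.00%), near the 13.4% and 3.53% of all genes, with medians of −0.17 at both times. Relative to the median gene, these medians were 0.13 in RC4 and −0.17 in RC8. None was at least 2-fold higher in RC4 and 1 was in RC8 (4.00%), beside 3.69% and 2.97% of all genes. Itgav, the αv subunit that pairs with β3 and β5, had a log2 change of −0.69 in AS. Src, the kinase, had one of 1.18 in RC8. Of 14 other matrix proteases and inhibitors, 3 were at least 2-fold higher in RC4 and 3 in RC8 (21.4% each, beside 3.69% and 2.97% of all genes), 1 was at least 2-fold lower at each time (7.14%, beside 13.4% and 3.53%), and the median was 0.36 and 0.15. The median of these 14 in RC4 was 0.66 relative to the median gene. Plat, a plasminogen activator, had a log2 change of 1.38 in RC4. Adam9 was at least 2-fold lower in all 3 comparisons, with log2 changes of −1.06, −1.55 and −1.63.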

How the data were processed

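Reads of the QuantSeq FWD libraries were trimmed with bbmap, mapped to mm9 with STAR (2.5.2a, per the labels) and assigned to PolyA_DB sites by MAAPER, all by the authors. Gene tables hold raw read counts that the authors deposited in a pair of columns for each library. PAS use was deposited as a fraction, the part of the reads of a gene at each PAS. Their P values, RLD and RED scores are the authors' own comparison and were not used. QuantSeq REV libraries were not analysed here.

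The count columns of a library differed by no more than sampling noise in 5 of 6 cases (chi-square test for a constant ratio, p = 0.883 to 0.972), and in RC8 by little (p = 0.0256, 1.03 per degree of freedom). The NT library gives 1 of these cases in each of the 3 comparisons. Genes with no reads in 1 of the columns, 43 to 93 per case, were left out. What the pair of columns holds is not given in the sources used here. They were taken to be parts of 1 library, an assumption, and added. RPM are reads scaled to 1000000 over the genes of a table. Intervals were exact Poisson for levels and Wilson for shares, at 95%, and cover counting error only, since reads copied by PCR were not merged into molecules here. TMM factors were from edgeR 4.0.16 in R 4.3.3, and other steps used Python 3.11.15 with scipy 1.17.1. Scoring was tested on simulated data. Gene positions are GENCODE vM1 on NCBIM37 (mm9).

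Named genes were Fn1, Sparc, Timp2, members with at least 100 RPM in any library, the 4 highest and 4 lowest log2 changes per comparison among those with at least 200 reads in the higher library, and members with a PAS change of at least 10 points with at least 200 reads in both libraries, up to 8 per comparison. Other genes named were chosen after their values were seen. The members and lists were chosen with earlier results of these data known. Results of some of these genes are not reported here.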

Additional observations from a re-analysis of the deposited data

Results flagged for a closer look

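Itgb3, the β3 integrin subunit, moved more than 2-fold in opposite directions in 2 of the comparisons that share the NT library. Its log2 change was −1.39 in AS and 1.29 in RC4, and the difference between them was not tested, since each condition has 1 library. The values rest on 161 reads in NT, 61 in AS and 400 in RC4. All reads of the gene were assigned to 1 PAS in the annotated 3′ UTR in all 3 tables.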

How the results depend on the processing

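Of 87 values recomputed under other settings for the counts, medians and PAS use of the matrix and integrin genes, 81 stayed within 1.5 times the main count or within the 95% interval of the main median, which treats genes as independent. The median log2 change in RC4 was 0.0152 relative to the median gene and 0.00168 with TMM factors, against −0.29 on the RPM scale, since these scalings move all genes together. With genes of at least 200 reads in the higher library, the number at least 2-fold lower in AS was 0, because Itgb3 has 161 reads. At a limit of 20 points, the number of genes with a PAS change was 0 (AS), 4 (RC4) and 3 (RC8). Leaving out Itga1, Loxl3, Mmp19 and Timp3, which have PASs near or over exons of other genes, or the 3 genes matched by symbol, both chosen after seeing the data, changed no count by more than 1.5 times. For single genes, 127 of 543 values moved by more than their 95% counting interval, 119 of them by scaling to the median gene or TMM and 8 with the first count column alone, and no gene at least 2-fold from NT changed sign. No paired analysis was possible because each condition has 1 library. Depth limits the genes near 50 reads, such as Adamts10 with 51 reads in RC4.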
